A study of Homo sapiens with 10 samples.

Results

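The zinc-finger genes of chromosome band 19q13.4 were followed across 10 RNA-seq libraries of A549, an established cell line from a human lung adenocarcinoma. The 38 genes were taken by name from the deposited count table, out of 33551 rows, and all 38 had a row. They are ZNF genes, all annotated as protein-coding, that lie from ZNF175 to ZNF331 on chromosome 19 between 51571298 and 53580269 (GRCh38, GENCODE release 29), a stretch of 2.01 Mb that also holds ZNF888, which is not among the 38. The genes were proposed because of a joint shift in the E690K line, so their differences between E690K and wild type (WT) are given as a description without a test.

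The 5 lines were WT, a line that the labels give as ABCA3 knockout (KO), and lines with the ABCA3 variants L101P, E292V or E690K. ABCA3 moves phospholipid into lamellar bodies, the surfactant stores of alveolar type 2 cells. Each line was sequenced once untreated and once after overnight transduction, at a multiplicity of infection of 20, with a VSVG-pseudotyped lentiviral vector that carries ABCA3 fused to GFP, so there was no replicate of a line within a treatment. Each genotype is represented by 1 line, all cells share the A549 background, and a difference between lines cannot be told apart from a difference between genotypes. In the KO pair the targeted gene went against the labels, with ABCA3 at 600 CPM (the count scaled to a common library size) in the untreated and 26.0 CPM in the transduced library, against 356 and 602 CPM in WT. The labels call the cells alveolar basal epithelial: the keratins KRT7, KRT8 and KRT18 lay between 1590 and 7950 CPM, while the type 2 cell markers SFTPC and NKX2-1 did not exceed 0.335 and 0.188 CPM and the basal cell keratin KRT5 did not exceed 0.508 CPM. TP63, also a basal cell marker, lay at 2.07 to 12.5 CPM. The epithelial markers KRT19, CDH1 and EPCAM lay at 61.6 to 473, 21.8 to 35.4 and 7.62 to 22.5 CPM. Of the alveolar type 1 markers, CAV1 lay at 287 to 636 CPM and AGER at 1.59 to 2.92 CPM, while PDPN, HOPX and AQP5 did not exceed 0.131 CPM. Of the markers of other cell types, PTPRC and PECAM1 did not exceed 0.134 and 0.101 CPM and CD3E was at 0. COL1A1 (14.2 to 116 CPM), CD68 (20.1 to 44.2 CPM), CD14 (1.16 to 5.47 CPM) and LUM (1.57 to 4.05 CPM) were measured, and CDH5 reached 0.968 CPM. Total counts ranged from 59430095 to 96811421 per library.

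KRAB zinc-finger proteins bind DNA through arrays of C2H2 fingers, and many recruit the corepressor TRIM28 (KAP1) through their KRAB domain, which brings in the histone methyltransferase SETDB1 and heterochromatin protein 1. Many of them bind transposable elements. Their genes stand in clusters that grew by tandem duplication, and chromosome 19 carries most of these clusters. Near-identical neighbours can share reads, and how such reads were counted is not stated in the sources used here.

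The promoters of the genes are shown first because a short motif near the start is commoner in them than in other promoters and occurs in expressed and in silent genes. RefSeq promoter windows (GRCh38.p14, 250 bases before to 50 after the start) were found for 32 of the 38 genes; ZNF649, ZNF480, ZNF610, ZNF600, ZNF28 and ZNF665 had no entry. Below are ZNF766 (chr19:52269337-52269636, plus strand) and ZNF160 (chr19:53103373-53103672, minus strand), both well expressed, and ZNF320 (chr19:52897645-52897944, minus strand) and ZNF677 (chr19:53254774-53255073, minus strand), with 0 and 1 counts in all libraries together. Capitals mark CCGGAAG, a match to the ETS factor motif.
ZNF766: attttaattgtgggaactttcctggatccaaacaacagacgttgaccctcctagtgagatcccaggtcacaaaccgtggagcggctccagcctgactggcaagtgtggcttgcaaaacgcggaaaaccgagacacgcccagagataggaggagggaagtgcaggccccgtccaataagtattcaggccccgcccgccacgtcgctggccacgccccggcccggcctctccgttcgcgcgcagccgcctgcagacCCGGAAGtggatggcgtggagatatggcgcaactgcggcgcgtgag
ZNF160: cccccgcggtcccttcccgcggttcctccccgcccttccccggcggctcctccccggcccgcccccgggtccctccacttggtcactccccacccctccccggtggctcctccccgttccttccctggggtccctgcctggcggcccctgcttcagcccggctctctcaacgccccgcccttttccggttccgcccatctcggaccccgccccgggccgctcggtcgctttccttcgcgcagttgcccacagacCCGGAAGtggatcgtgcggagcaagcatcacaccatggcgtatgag
ZNF320: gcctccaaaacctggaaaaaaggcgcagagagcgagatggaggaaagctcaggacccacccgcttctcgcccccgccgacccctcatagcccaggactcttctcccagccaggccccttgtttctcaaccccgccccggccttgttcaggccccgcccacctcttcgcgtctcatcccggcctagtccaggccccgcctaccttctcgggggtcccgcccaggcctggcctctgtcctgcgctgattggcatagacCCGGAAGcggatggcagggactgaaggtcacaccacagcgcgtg
ZNF677: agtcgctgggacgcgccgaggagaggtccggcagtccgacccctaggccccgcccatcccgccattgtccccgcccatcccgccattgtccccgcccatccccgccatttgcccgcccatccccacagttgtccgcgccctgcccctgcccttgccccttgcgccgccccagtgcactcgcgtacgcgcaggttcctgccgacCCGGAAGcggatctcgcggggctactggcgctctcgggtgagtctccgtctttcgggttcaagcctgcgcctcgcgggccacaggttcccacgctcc

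CCGGAAG, searched on both strands, was present in 20 of the 32 windows (62.5%), against 10.7% of the 27305 windows of all genes in the RefSeq promoter set. It was in 42.6% of 183 windows of other ZNF genes of chromosome 19, in 34.9% of 209 windows of ZNF genes on other chromosomes, and in 19.9% of the 9875 windows with 14 to 34 CpG dinucleotides, the range of the cluster. The 22 matches all read in the direction of the gene, and 19 of them began within 30 bases of the RefSeq start, with a median offset of 4 bases after it. The commonest run with the 3 bases before the match, gacCCGGAAG, was picked from these promoters after they were read. It was in 10 of the 32 windows (31.2%), in 0.509% of all windows, in 0.546% of windows of other ZNF genes of chromosome 19 and in 1.91% of those on other chromosomes. Within the cluster it was in 3 of 15 windows of genes of at least 1 CPM and in 6 of 11 of genes under 0.1 CPM. These genes are duplicates of one another, so the windows are not independent.

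Other motifs were near or below their share in all windows, or rested on few genes. TATAAA was in 0 of 32 windows (12% of all windows), CCAAT in 28.1% (35.7%), TGACTCA, the AP-1 motif, in 3.12% (4.92%), and CACGTG, the E-box, in 3.12% (7.43%). GCATGCG, the core of the NRF1 motif, was in 6.25% (4.13%) and AAGATGG, the core of the YY1 motif, in 12.5% (6.06%). The windows with AAGATGG were those of ZNF613, ZNF615, ZNF614 and ZNF432, which lie close together on the chromosome. AAGATGG can share its first 3 bases with the end of CCGGAAG, and of these 4 windows only that of ZNF432 held both. In windows of other ZNF genes of chromosome 19 TATAAA was in 2.19% and CCAAT in 57.9%, and on other chromosomes in 3.83% and 44%. The median number of CpG dinucleotides per window was 25, against 14 over all windows. It was 19 for other ZNF genes of chromosome 19 and 24 for ZNF genes on other chromosomes.

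Levels within the cluster split into expressed and nearly silent genes in the same cells. Over the 10 libraries, 16 of the 38 genes had a mean of at least 1 CPM (42.1%), 8 lay from 0.1 to 1 CPM and 14 were under 0.1 CPM (36.8%). Of 208 other ZNF genes of chromosome 19, 66.3% had at least 1 CPM and 23.1% were under 0.1 CPM, and for 261 ZNF genes of other chromosomes the shares were 84.3% and 11.9%. Over all 33551 rows they were 38.6% and 49.4%, and for the 1750 other genes of chromosome 19 they were 42.5% and 41.6%. CPM values here use library sizes corrected with TMM factors (trimmed mean of M-values). Per length, as CPM divided by exonic kilobases, ZNF480 was highest at 8.39, followed by ZNF761 at 4.96, ZNF766 at 3.43 and ZNF331 at 2.88, and the lowest gene above 1 CPM was ZNF813 at 0.266.

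**Figure D1:**
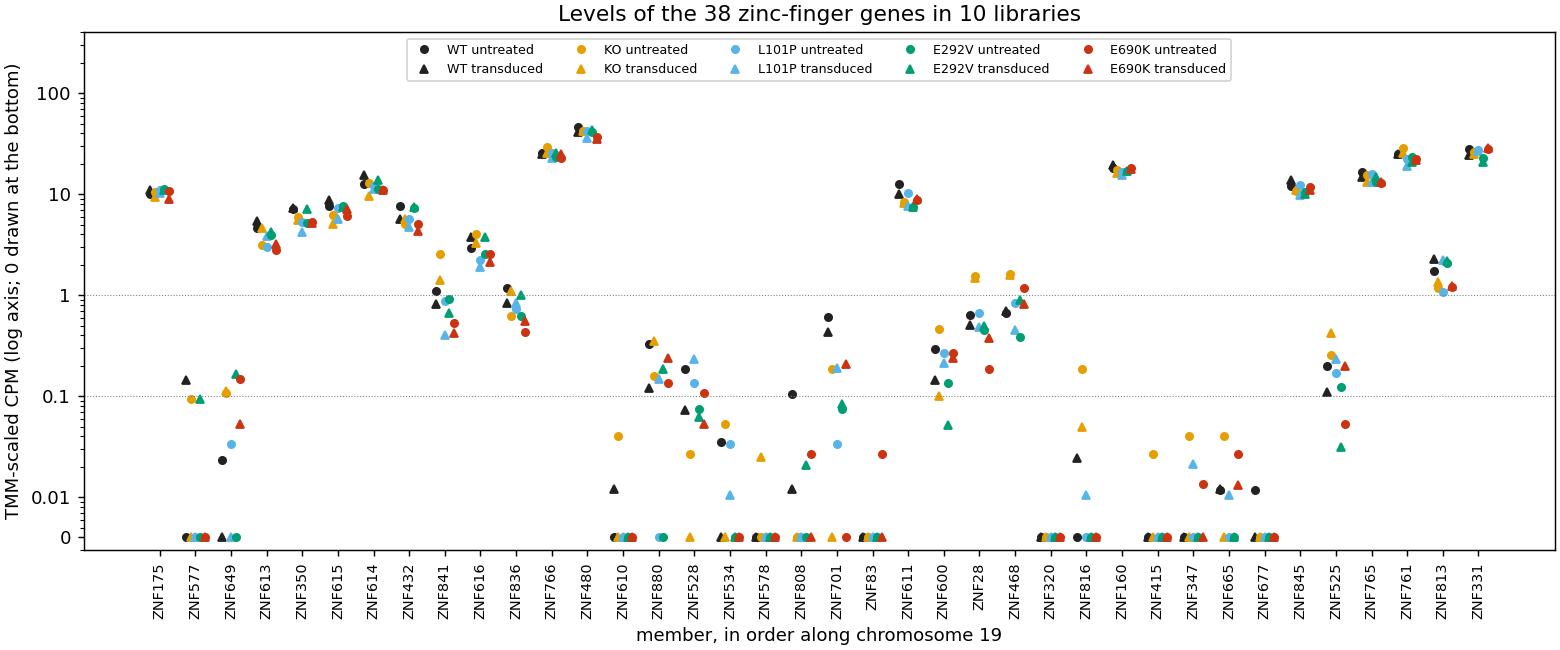
Each point is the level of 1 gene in 1 library, in TMM-scaled CPM on a log axis, with genes in chromosomal order, colour for the line and symbol for vector status; 0 counts are drawn at the bottom. The 16 genes above 1 CPM are separated by runs of genes below it, and the order of the lines differs from gene to gene.

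Genes under 1 CPM lay in runs: none of the genes from ZNF610 to ZNF83, from ZNF600 to ZNF816 or from ZNF415 to ZNF677 reached a mean of 1 CPM. ZNF320 had 0 counts in all 10 libraries, where 3 counts correspond to 0.0312 to 0.0503 CPM. ZNF677, known for silencing by promoter methylation in lung cancer, had 1 count in 1 library. ZNF83, ZNF415 and ZNF578 had at most 2 counts in any library, and ZNF610, ZNF347 and ZNF665 at most 3. ZNF808, whose loss causes pancreatic agenesis, had at most 9, ZNF534 at most 4, ZNF577 at most 12, ZNF816 at most 14, ZNF649 at most 16 and ZNF528 at most 22. ZNF610 (52336245 to 52367778) is the next gene of the cluster after ZNF480 (52297177 to 52325922), the gene with the highest level of the cluster. In the windows of the silent and the expressed genes the CpG count had the same median of 25, with ranges of 17 to 34 and 17 to 30, and CCGGAAG was in 8 of 11 silent and 9 of 15 expressed windows.

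The genes from 0.1 to 1 CPM were ZNF841, ZNF836, ZNF880, ZNF701, ZNF600, ZNF28, ZNF468 and ZNF525. ZNF841 lay just under 1 CPM (mean 0.97) and ZNF813 just above it (1.66). Of the 38 genes, 26 passed the expression filter and were tested (the 16 above 1 CPM, the 8 between, ZNF649 and ZNF528), and 12 were not. In GENCODE 29, 26 genes overlap another annotated gene, 20 on the same strand and 15 on the opposite strand, and 13 overlap another gene of the cluster; the use of strand and of shared reads in counting is not stated. Pairs of cluster genes overlap on the same strand, and the counts of ZNF432 and ZNF841, ZNF28 and ZNF468, ZNF468 and ZNF320, ZNF701 and ZNF808, ZNF577 and ZNF649, ZNF415 and ZNF347, and ZNF525 and ZNF765 are uncertain as reads could be split between them.

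Low values relative to WT were measured in other lines besides E690K. The 26 tested genes had median log2 differences of -0.34 in E690K, -0.25 in L101P, -0.20 in E292V and -0.15 in KO, where the median over all 17978 genes tested lay between -0.02 and 0.00. These 4 comparisons share the 2 WT libraries, so a high value in WT alone would give all 4 of them the same sign, and they are not independent. Without WT on either side, KO minus E292V had a median of 0.11 with 10 of 26 genes lower, and L101P minus E292V one of -0.07 with 17 lower. Over the 16 genes of at least 1 CPM these medians were -0.01 with 9 lower and -0.10 with 12 lower, so the sign for KO depended on the low genes. Among the 16 genes of at least 1 CPM, the highest of the 10 values was in a WT library for 11 genes, in KO for 3, and in E292V and E690K for 1 each. Over all 12962 genes of that level, 19% had their highest value in WT, 13.3% in KO, 25.4% in E292V, 16.3% in E690K and 26.1% in L101P, where no cluster gene had it. The lowest was in an L101P library for 7 genes, in E690K for 5, in KO and E292V for 2 each and in WT for 0, against 23.8%, 17.9%, 14%, 26.5% and 17.8% of all genes in the same order. The summed level of the 38 genes was 243 CPM untreated and 237 CPM transduced in WT, 234 and 218 in KO, 224 and 198 in L101P, 213 and 221 in E292V, and 210 and 208 in E690K. Both WT libraries were above the other 8, and the lowest was transduced L101P. The genes were proposed from E690K against WT. The counts of highest and lowest values and these sums therefore draw on values behind that choice, and are a description.

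**Figure D2:**
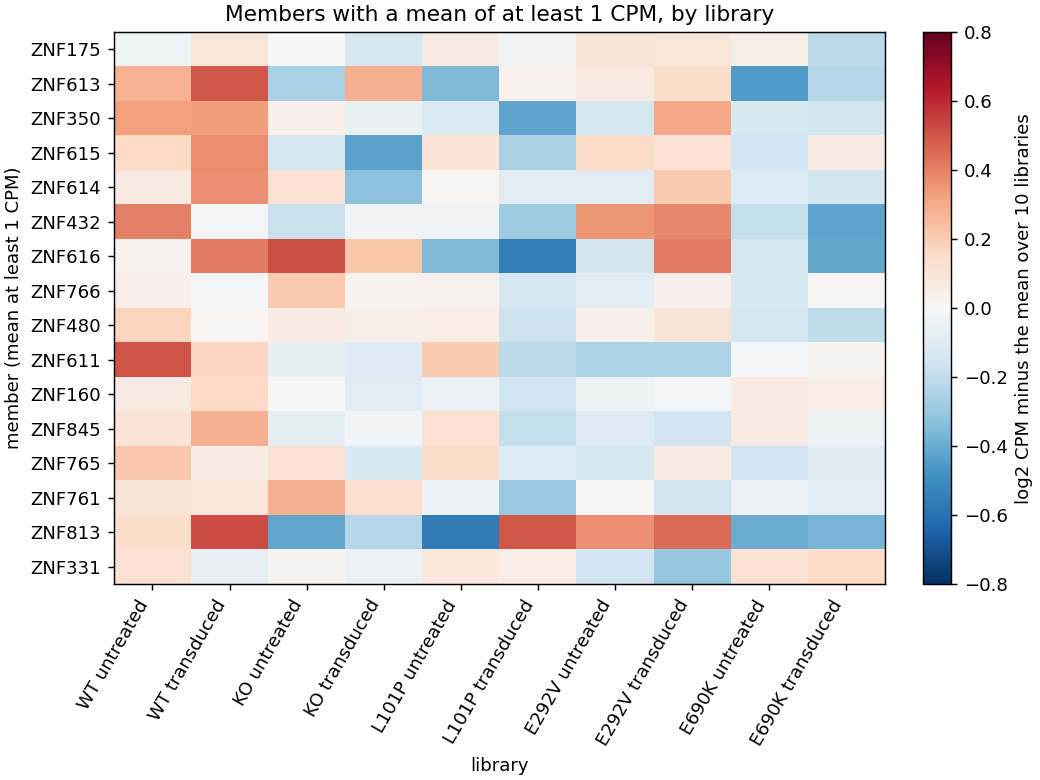
Rows are the 16 genes averaging at least 1 CPM in chromosomal order, columns the 10 libraries, and colour is log2 CPM minus the gene's mean over the libraries. The WT columns are mostly red, with medians of 0.13 and 0.17, and the lowest medians are those of transduced L101P at -0.16 and the E690K libraries at -0.12 each.

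In E690K, 15 of the 16 genes above 1 CPM were lower than in WT on average over vector status. Both E690K libraries lay below both WT libraries for 12 of these 16 genes and for 16 of the 26 tested ones, a relation found for 27.4% of all genes tested, and 2 of the 26 lay above, against 23.8%. The genes were proposed from this contrast, so these counts are a description. Genes at both ends of the range of differences are given next.

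Of the tested genes under 1 CPM, ZNF649 and ZNF701 had fitted E690K differences of 2.91 and -2.49 (SE 1.99 and 1.60). ZNF836, ZNF28 and ZNF841 had -1.09, -1.01 and -0.99. ZNF701 had 0.612 CPM untreated and 0.437 CPM transduced in WT, and 0 and 0.210 CPM in E690K. Every library of the other lines was below both WT libraries for ZNF701. Among the genes of at least 1 CPM, the largest difference was that of ZNF613. It had 4.61 CPM untreated and 5.37 CPM transduced in WT, and in the same order 3.17 and 4.63 in KO, 2.97 and 3.87 in L101P, 3.97 and 4.18 in E292V, and 2.77 and 3.23 in E690K. The E690K pair was below the WT pair, and the L101P pair and untreated KO were low as well. The log2 difference was -0.73 in both pairs.

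ZNF813 had 1.75 and 2.29 CPM in WT, 1.19 and 1.35 in KO, 1.07 and 2.25 in L101P, 2.06 and 2.19 in E292V, and 1.20 and 1.22 in E690K. KO and E690K were low in both libraries and L101P in the untreated one only. ZNF432 had 7.63 and 5.69 CPM in WT, 5.09 and 5.67 in KO, 5.66 and 4.72 in L101P, 7.35 and 7.53 in E292V, and 5.04 and 4.28 in E690K. E292V stayed within the WT values while KO, L101P and E690K lay below them. The values of 5.67 in KO and 5.66 in L101P were close to the lower WT value of 5.69.

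ZNF616 had 2.90 and 3.78 CPM in WT, 4.07 and 3.30 in KO, 2.21 and 1.92 in L101P, 2.55 and 3.79 in E292V, and 2.58 and 2.13 in E690K. The 2 lowest values were those of L101P transduced and E690K transduced. ZNF350 encodes ZBRK1, a repressor that binds BRCA1. It had 7.17 and 7.21 CPM in WT, 5.88 and 5.49 in KO, 5.26 and 4.26 in L101P, 5.17 and 7.05 in E292V, and 5.24 and 5.15 in E690K, so that the 8 libraries of the other lines were all below both WT libraries. ZNF614 had 12.6 and 15.5 CPM in WT, 13 and 9.59 in KO, 12.1 and 11.3 in L101P, 11.3 and 13.9 in E292V, and 11.1 and 10.9 in E690K; KO and E292V overlapped WT, and L101P and E690K did not. ZNF613, ZNF350, ZNF615, ZNF614, ZNF432 and ZNF616 follow each other on the chromosome with ZNF841 among them, and their E690K minus WT log2 differences ran from -0.73 to -0.31.

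The 6 genes with the smallest differences all had a mean above 10 CPM. ZNF160, reported as a repressor of TLR4, had 18.1 and 19.3 CPM in WT, 17.2 and 16.3 in KO, 16.7 and 15.5 in L101P, 16.8 and 17 in E292V, and 18.2 and 17.9 in E690K, which overlapped WT (log2 difference -0.05). ZNF766 had 25.7 and 24.8 CPM in WT, 29 and 25.6 in KO, 25.7 and 22.9 in L101P, 23.5 and 25.8 in E292V, and 23.0 and 25.2 in E690K, again overlapping (-0.07). ZNF331, the last gene of the cluster and imprinted in some tissues, had 27.9 and 24.6 CPM in WT, 26.0 and 24.8 in KO, 27.1 and 26.5 in L101P, 23.0 and 20.8 in E292V, and 27.9 and 28.5 in E690K. It was the only one of the 16 with a positive E690K minus WT difference, of 0.10.

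ZNF175 (OTK18), the first gene, had 10.1 and 11.1 CPM in WT, 10.4 and 9.47 in KO, 10.9 and 10.2 in L101P, 11.2 and 11.1 in E292V, and 10.7 and 8.96 in E690K. KO, L101P and E690K overlapped WT, and E292V lay at the upper WT value. ZNF761 had 24.9 CPM in both WT libraries, 28.3 and 25.5 in KO, 22.5 and 18.9 in L101P, 23.4 and 21.0 in E292V, and 22.5 and 21.9 in E690K; KO was above WT and the other lines below. ZNF845 had 12.1 and 13.7 CPM in WT, 10.7 and 11 in KO, 12.2 and 9.80 in L101P, 10.4 and 10.1 in E292V, and 11.7 and 10.9 in E690K. Only the untreated L101P library reached the lower of its WT values.

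Of the remaining well expressed genes, ZNF480 had 45.8 and 40.9 CPM in WT, 42.3 and 41.8 in KO, 42.0 and 36.1 in L101P, 41.5 and 43.4 in E292V, and 36.7 and 35.1 in E690K. The untreated E690K library had 2744 counts, which gives a 95% Wilson interval of 34.8 to 38.7 CPM for counting error within that library. ZNF765 had 16.5 and 14.8 CPM in WT, 15.5 and 13.1 in KO, 15.7 and 13.2 in L101P, 13.1 and 14.9 in E292V, and 12.8 and 13.3 in E690K. Both genes had E690K below both WT libraries, with log2 differences of -0.27 and -0.26.

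**Figure D3:**
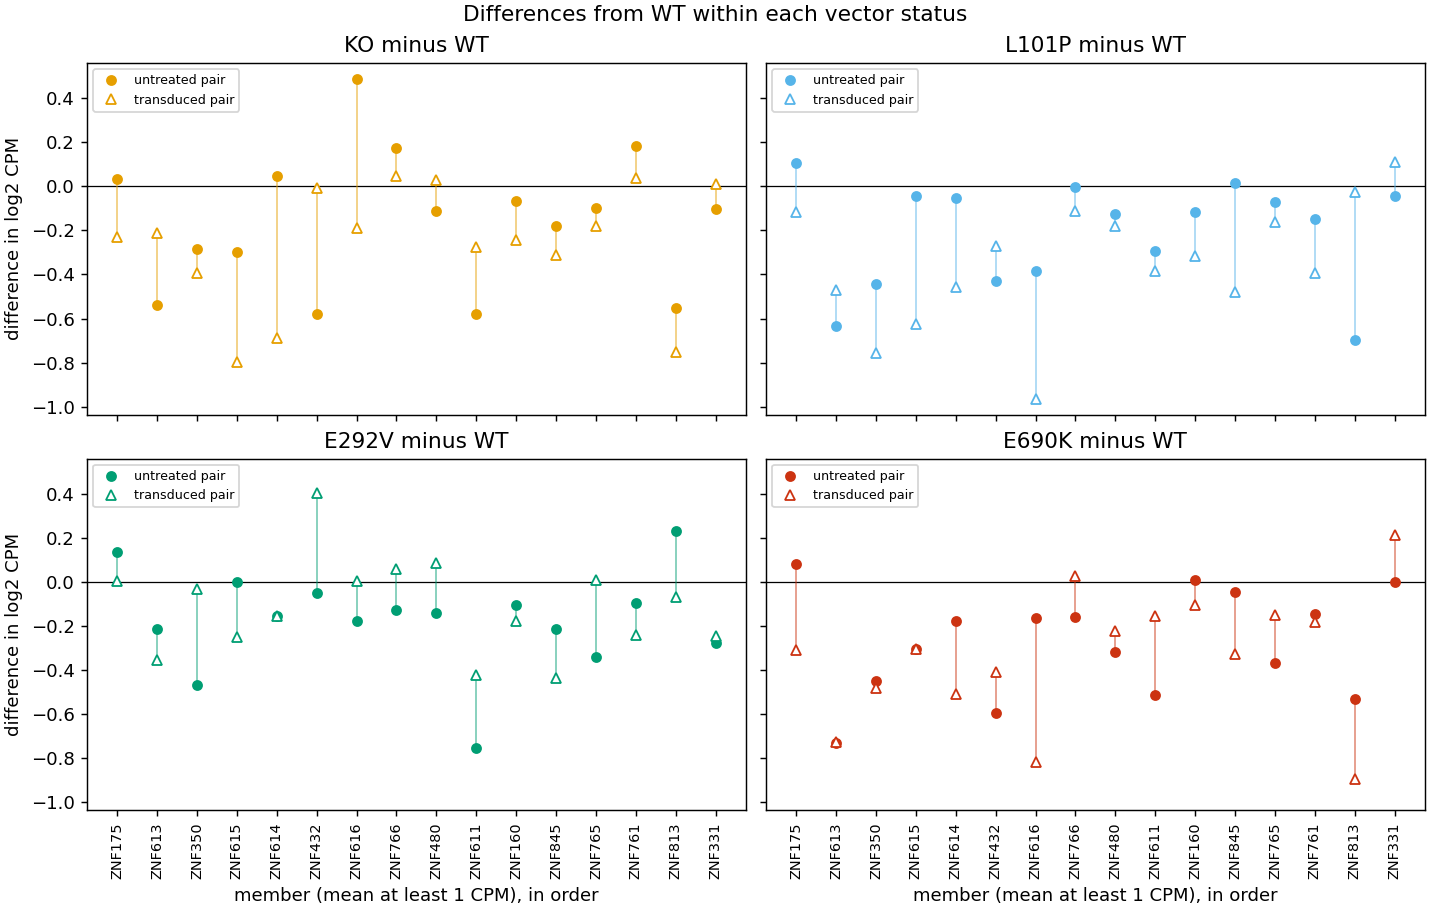
Each panel gives 1 line minus WT in log2 CPM for the 16 genes of at least 1 CPM, with circles for the untreated and triangles for the transduced pair of libraries. In E690K the points of ZNF613 coincide at -0.73, those of ZNF331 lie at 0.00 and 0.21 and those of ZNF616 at -0.16 and -0.82. In KO and L101P several genes differ between the pairs by more than 0.4. In E292V ZNF350 (-0.47 and -0.03) and ZNF432 (-0.05 and 0.40) do so as well.

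The KO, L101P and E292V libraries were not used to propose the genes, but the WT libraries they are compared with were. Counts of genes below WT in these lines are therefore not independent of that choice. Each gene was tested against WT in a fit over all genes and all 10 libraries. The test was edgeR quasi-likelihood with Benjamini-Hochberg adjustment, with line and vector as terms. In these 3 comparisons 0 of the 26 genes passed an adjusted p of 0.05, where 1.8%, 3.94% and 1.05% of all genes did. With an unadjusted p under 0.05 there were 5 genes in KO, 5 in L101P and 3 in E292V, of 26, where 14.1%, 18.3% and 10.3% of all genes had one. By the DESeq2 Wald test 0, 0 and 1 of the 26 passed, with no share of all genes counted for that test. In L101P 20 of the 26 genes were lower than in WT and 0 had both libraries above both WT libraries (20.4% of all genes), while 10 (38.5%) had both below, against 23.3%. In E292V 22 of 26 were lower and both libraries were below WT for 11 (42.3% against 20.3%), and in KO 17 of 26 were lower and both were below for 9 (34.6% against 23.7%) and above for 6 (23.1% against 22%). The pairs did not weigh equally: the L101P median over the 16 genes above 1 CPM was -0.12 in the untreated and -0.35 in the transduced pair, and the transduced L101P library was also the deepest and the untreated one the shallowest of the 10; the part of depth was not tested.

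Among single genes, ZNF350 in L101P had a log2 difference from WT of -0.60 (SE 0.19, edgeR adjusted p = 0.101) and ZNF613 of -0.55 (SE 0.19, 0.138). ZNF611, a zinc-finger gene in the middle of the cluster, had 12.5 and 9.93 CPM in WT, 8.35 and 8.21 in KO, 10.2 and 7.59 in L101P, 7.39 and 7.40 in E292V, and 8.74 and 8.92 in E690K. E292V was the lowest line, with a log2 difference from WT of -0.59 (SE 0.15, edgeR adjusted p = 0.111). It passed by the DESeq2 Wald test (adjusted p = 0.0293), without a filter on low counts (edgeR, 0.0211) and without the L101P pair or either of its libraries (edgeR, 0.0101 to 0.018). It was 0.789 without untreated WT, 0.388 without untreated E292V and 0.37 without transduced E292V (edgeR adjusted p). ZNF615 had 7.60 and 8.81 CPM in WT, 6.17 and 5.07 in KO, 7.37 and 5.70 in L101P, 7.59 and 7.40 in E292V, and 6.14 and 7.14 in E690K, with a log2 difference of KO from WT of -0.55 (SE 0.18, edgeR adjusted p = 0.160) that passed without either L101P library (edgeR, 0.0387 without the untreated, 0.037 without the transduced one). Without transduced WT it was -0.37 (edgeR adjusted p = 0.638) and without transduced KO -0.41 (0.877). ZNF350 in L101P passed without the untreated L101P library (edgeR adjusted p = 0.0186) and had 0.367 without the transduced one.

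Both libraries of the line labelled KO were above the other 8 for 5 of the 26 tested genes, beside 2.24% of all genes. These were ZNF841, ZNF28, ZNF468, ZNF525 and ZNF761, singled out after their values were seen, and none passed the test against WT. ZNF28 had 1.56 and 1.49 CPM in KO, against 0.636 and 0.510 in WT, 0.670 and 0.489 in L101P, 0.457 and 0.5 in E292V, and 0.187 and 0.381 in E690K. ZNF468, which overlaps it, had 1.61 and 1.57 CPM in KO, against 0.659 and 0.692 in WT, 0.838 and 0.457 in L101P, 0.382 and 0.895 in E292V, and 1.19 and 0.815 in E690K. ZNF841 had 2.56 and 1.42 CPM in KO, against 1.09 and 0.813 in WT, 0.871 and 0.404 in L101P, 0.913 and 0.666 in E292V, and 0.535 and 0.421 in E690K. ZNF28 and ZNF468 had KO values close to each other, and ZNF841 differed more between its KO libraries. Against WT, ZNF28 had a log2 fold change of 1.41 with an SE of 0.47 and an edgeR adjusted p of 0.177. The values were 1.23, 0.48 and 0.249 for ZNF468 and 1.02, 0.37 and 0.211 for ZNF841.

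Because the comparisons above share WT, KO and L101P were also set against E292V, a choice made after the data were seen. Against E292V, KO had higher ZNF28 (log2 fold change 1.67, SE 0.48, edgeR adjusted p = 0.0417) and ZNF841 (1.29, SE 0.37, 0.0428), 2 of the 26 genes where 10.7% of all genes passed, and 8 of the 26 had an unadjusted p under 0.05 where 23.8% did. Both calls were lost with the labels of the KO pair exchanged (edgeR adjusted p = 0.0511 and 0.0895), without the WT pair (0.0513 and 0.0576) and without any 1 of the 4 KO and E292V libraries (0.169 to 0.285 over both genes), and ZNF841 also without the E690K pair or either of its libraries or the untreated WT library (0.0524 to 0.0554). In L101P against E292V, 0 of 26 passed by edgeR (13.8% of all genes did) and 3 had an unadjusted p under 0.05 (26.8% did). By DESeq2 1 of the 26 passed, with no share of all genes counted for that test. The nearest were ZNF331 (log2 fold change 0.30, SE 0.10, edgeR adjusted p = 0.0611; DESeq2 0.0420) and ZNF432 (-0.53, SE 0.18, edgeR 0.0672). The median of the 26 genes between these lines was -0.07, which turned to 0.09 without the transduced E292V library.

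Zinc-finger genes outside the cluster were lower in E690K and L101P as well. Among those of at least 1 CPM, the 138 other ZNF genes of chromosome 19 had median log2 differences from WT of -0.22 in E690K, -0.21 in L101P, -0.08 in KO and -0.02 in E292V, beside -0.29, -0.27, -0.20 and -0.15 for the 16 genes of the cluster. The 220 ZNF genes on other chromosomes had -0.06, -0.05, -0.04 and 0.03, and the 743 other genes of chromosome 19 had -0.05, -0.03, -0.06 and -0.04. Both E690K libraries lay below WT for 60.9% of the 138 and 75.0% of the 16 genes, against 31.8% of the 220. The difference between these groups was not tested, since the groups are sets of genes and not of samples.

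**Figure D4:**
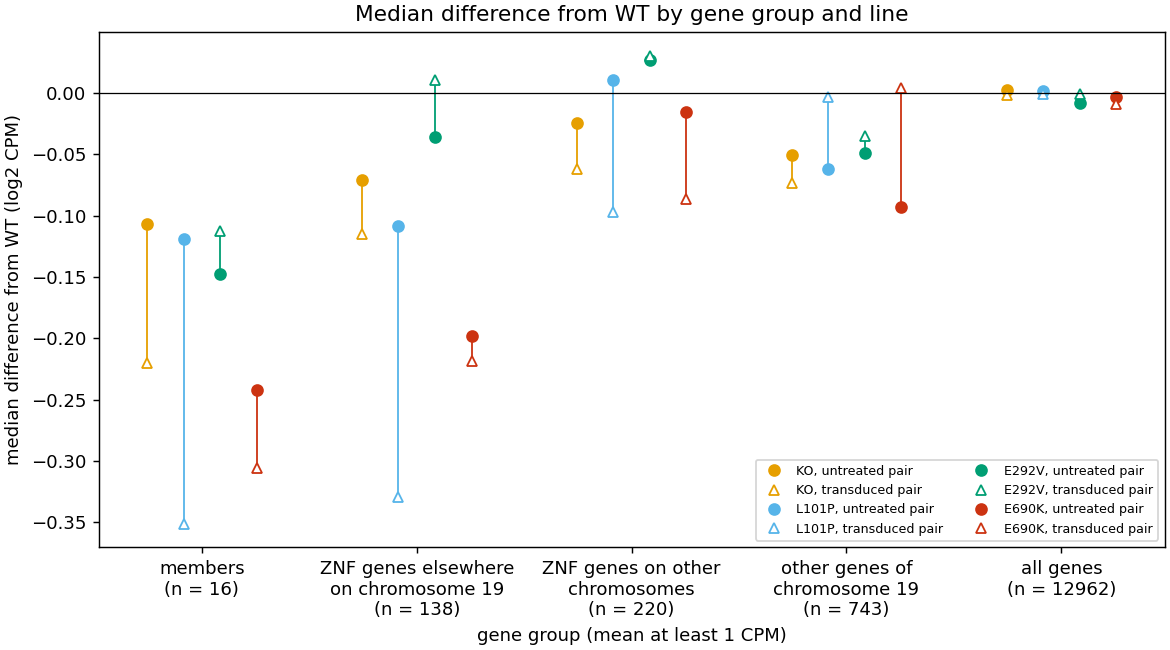
Points are the median differences from WT in log2 CPM over the genes of at least 1 CPM in each group, for the untreated (circle) and transduced (triangle) pair of each line. E690K and L101P are low for the cluster and for the 138 ZNF genes elsewhere on chromosome 19, and E292V is low for the cluster (-0.15 and -0.11) but near 0 for the others.

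Of 35 rows of the stretch that are not in the list, 9 were tested, with medians from WT of -0.40 in E690K (8 of 9 lower), -0.44 in KO (7), -0.09 in L101P (5) and -0.09 in E292V (6). PPP2R1A, a scaffold subunit of protein phosphatase 2A, lies between ZNF836 and ZNF766 at a mean of 451 CPM and had E690K and L101P differences from WT of -0.05 and -0.09. SPACA6 had -0.31 and -0.48 at 10.2 CPM, SPACA6P-AS, which overlaps it on the other strand, -0.37 and -0.52 at 1.72 CPM, and the other 6, among them HAS1 and ZNF888, were under 0.4 CPM. Just outside the stretch, CLDND2 had -0.34 and -0.95 before it, with AC008750.7 and SIGLEC10 nearer but under 0.2 CPM. After it MYADM had 0.29 and 0.33 at 238 CPM, AC008440.3 had -0.01 and 0.57 at 4.02 CPM, and AC008440.1 was at 0.22 CPM.

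**Figure D5:**
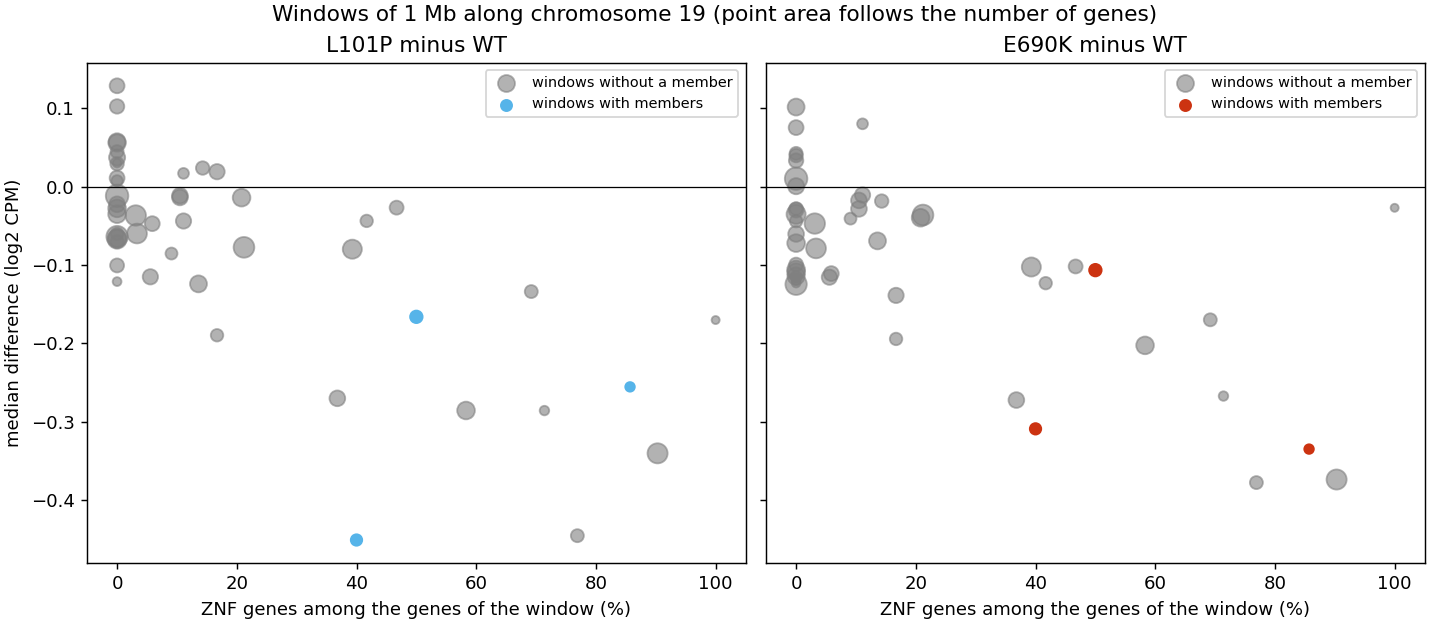
Points are the 49 windows of 1 Mb of chromosome 19 with at least 5 genes of at least 1 CPM; the x axis is the percentage of ZNF genes in the window, the y axis the median log2 difference from WT, in L101P (left) and E690K (right). Windows holding cluster genes (coloured) lie among other windows rich in ZNF genes, and windows under 40% have medians of -0.03 in L101P and -0.05 in E690K.

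Along chromosome 19, the 3 windows with cluster genes had E690K medians of -0.31 (51 to 52 Mb), -0.33 (52 to 53 Mb) and -0.11 (53 to 54 Mb). The 8 other windows in which at least 40% of the genes were ZNF genes had E690K medians from -0.38 to -0.03, with a median of -0.19, and the 38 windows with fewer had a median of -0.05 (-0.27 to 0.10). In L101P the corresponding medians were -0.45, -0.26 and -0.17 for the cluster windows, -0.23 for the other ZNF-rich windows and -0.03 for the rest. The lowest E690K window of the chromosome, 37 to 38 Mb, was outside the cluster at -0.38, and the next, 57 to 58 Mb, was at -0.37, so that the cluster windows from 52 and 51 Mb ranked 3 and 4 of 49, and that from 53 Mb 20. The windows from 51, 52 and 53 Mb ranked 1, 7 and 10 of 49 in L101P, 1, 9 and 14 in KO, and 9, 11 and 2 in E292V. Their lowest medians were -0.45 in L101P, -0.25 in KO and -0.17 in E292V. The genes were proposed from E690K against WT. The E690K ranks are therefore a description, and those of the other lines share the WT libraries behind that choice. The window from 51 Mb held 4 cluster genes among 10. Its genes that are not ZNF genes had an E690K median of -0.30, against -0.05 and 0.01 in the windows from 52 and 53 Mb.

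The vector changed none of the cluster genes past the threshold. Over the 5 lines, 0 of the 26 genes and 0% of all 17978 genes passed (edgeR, adjusted p under 0.05), 2 cluster genes had an unadjusted p under 0.05 (6.88% of all genes did), and DESeq2 called 0 of the 26. These 2 were ZNF841 (log2 fold change -0.64, SE 0.24, edgeR adjusted p = 0.603) and ZNF613 (0.29, SE 0.12, 0.657). ZNF613 was higher after transduction in all 5 lines as labelled. With the labels of the KO pair exchanged its change in KO turns sign, and the fitted values fell to 0.07 for ZNF613 and -0.27 for ZNF841. The median over the 16 genes above 1 CPM was -0.02 in E690K and 0.05 in WT, with 0.05 in E292V, -0.09 in KO and -0.21 in L101P. A term for a different vector effect in E690K than in the other lines was past the threshold for 0 of the 28 genes tested in that fit and 0% of all 19236 genes, and 0 of the 28 had an unadjusted p under 0.05, against 2.35%; DESeq2 called 0 as well.

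The corepressor genes through which KRAB proteins act were at unlike levels, and few passed the test in any comparison. TRIM28 had a mean of 974.5 CPM and SETDB1 of 43.9 CPM, and neither passed in any line (TRIM28 log2 fold changes against WT of 0.14 in E690K, 0.01 in E292V, 0.03 in L101P and -0.02 in KO; edgeR adjusted p 0.35 to 0.987). Of 29 corepressor and heterochromatin genes, all tested, edgeR called 0 in KO and L101P, beside 1.8% and 3.94% of all genes, and DESeq2 also called 0. An unadjusted edgeR p under 0.05 was found for 4 and 3 of the 29, where 14.1% and 18.3% of all genes had one. With the vector edgeR called 0, beside 0% of all genes, and DESeq2 also called 0. There 0 had an unadjusted edgeR p under 0.05, beside 6.88% of all genes. Against E292V 2 were higher in L101P and the same 2 in KO: SUV39H1 (log2 fold change 0.65 and 0.62, edgeR adjusted p = 0.000385 and 0.000742) and RESF1, a partner of SETDB1 (0.27 and 0.31, 0.0358 and 0.0237). Of all genes, 13.8% and 10.7% were called in these 2 comparisons. Against WT, 1 of the 29 was called in E292V and 1 in E690K. Of all 17978 genes, 1.05% were called in E292V, and in E690K 548 were called higher and 419 lower. In E292V SUV39H1, a histone H3 lysine methyltransferase, was lower, at a log2 difference of -0.56 from WT (SE 0.09, edgeR adjusted p = 0.00994), a call lost without the untreated WT library (0.0991) or the transduced E292V library (0.126). In E690K UHRF1, which recruits the maintenance DNA methyltransferase, was higher by 0.33 (SE 0.08, edgeR adjusted p = 0.0309), a call lost with the KO labels exchanged (0.0589), without either KO library or both (0.0618 to 0.0648) and without the untreated WT library or either E690K library (0.136 to 0.313).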

How the data were processed

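Per the labels' protocols, the cells were detached before RNA extraction and a total-RNA library kit was used. The values in the deposited file are raw counts for each gene; featureCounts, Subread, edgeR and limma and the build GRCh38 are named in the submitters' processing notes, and the annotation and the strand and multi-mapping settings are not given in the sources used here. Of the rows, 98.5% matched 1 gene of GENCODE 29 (GRCh38), which gave positions and exonic lengths.

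Counts were fitted in edgeR 4.0.16 (R 4.3.3): filterByExpr, TMM factors (0.972 to 1.03), terms for line and vector (4 residual degrees of freedom), quasi-likelihood test, Benjamini-Hochberg adjustment over 17978 genes, threshold 0.05. The pairing of libraries in the vector effect is by cell line. For a line contrast the error comes from how far libraries deviate from an additive model, so p-values describe these libraries and not independent clones. The SE is the log2 fold change divided by the square root of F. Differences within a pair use log2 CPM with a prior count of 2. Of all deposited counts from 1 to 10, 81.4% were even, and of the 52 such counts of the cluster genes 59.6% were. Following the share over all genes, 95% Wilson intervals were taken on count/2, and they cover counting error only. Motifs were searched in RefSeq windows. Alternatives were DESeq2 1.42.0, RLE factors, other filters, left-out libraries and exchanged KO labels. Shares of all genes called are from edgeR with the main settings and were not counted under these alternatives. The code was tested on simulated data.

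The genes, lists and tests were chosen with earlier results of these data known. Genes with values in every library were the 8 with the highest mean CPM, the 6 with the largest and the 6 with the smallest difference between E690K and WT among those of at least 1 CPM, the ends of the cluster, and genes past the threshold; ZNF611, ZNF615, ZNF28, ZNF468 and ZNF525 were added after their values were seen. A planned count of fingers per protein was not run, as no protein table was used here.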

Additional observations from a re-analysis of the deposited data

How the results depend on the processing

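Alternatives were run for the counts of called cluster and corepressor genes, the medians of the cluster and the genes nearest to or past the threshold, and not for single genes in E690K or the other ZNF groups; no median against WT changed sign under them. The coefficient of variation between libraries was 12.9%, and 12 of the 38 genes were too low to test. Without a filter on low counts the KO median was -0.0391 in place of -0.15, and 1 gene was called in L101P (ZNF350, edgeR adjusted p = 0.0441) and 1 in E292V (ZNF611). The DESeq2 Wald test called 1 gene in E292V and 1 in L101P against E292V. The E690K median of -0.34 became -0.29 over the 16 genes of at least 1 CPM, chosen after seeing the data, and -0.26 over the 13 of at least 5 CPM. With the KO labels exchanged, the calls in KO against E292V went from 2 to 0 and the corepressor calls in E690K from 1 to 0; the latter were 2 without a filter and 2 by DESeq2. The cause was not tested.

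Leaving out each library or pair in turn, the medians ranged from -0.19 to -0.0575 in KO, -0.38 to -0.19 in L101P, -0.35 to -0.13 in E292V, -0.41 to -0.28 in E690K, and -0.13 to 0.0913 in L101P against E292V. Calls ranged from 0 to 1 in KO, in L101P and in E292V, from 0 to 4 in KO against E292V, where the 4 came without the L101P pair, and were 0 for the vector, for its E690K term and for L101P against E292V. Corepressor calls ranged from 0 to 1 in E292V and 0 to 2 in E690K and were 0 in KO, in L101P and for the vector. With no replicate block, that is without line as a term, the vector called 0 of 24 tested genes.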

Other observations

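In L101P minus E292V, the 8 windows of chromosome 19 rich in ZNF genes but outside the cluster had median log2 differences from -0.38 to 0.04, with a median of -0.25. The lowest were -0.38 at 21 to 22 Mb (5 ZNF genes of 5), -0.37 at 57 to 58 Mb (28 of 31) and -0.35 at 37 to 38 Mb (10 of 13). The 3 windows with cluster genes had -0.27, -0.11 and 0.07. Of the 163 tested ZNF genes of chromosome 19 outside the cluster, 8 were lower and 1 higher in L101P than in E292V (edgeR adjusted p under 0.05), against 0 of the 26 genes of the cluster and 13.8% of all genes. The difference between the 2 groups of genes was not tested.

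The change with the vector was examined over the 5 lines for a single extreme line, in the 16 genes of at least 1 CPM and in their median. None of these 17 sets passed the limit of 0.71 for the gap over the range, which chance passes in about 1 of 20 sets. The nearest was ZNF813, with a change of 1.06 in L101P against 0.02 to 0.38 in the other lines and a gap of 0.65.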
